A study of Mus musculus with 3 samples.

Results

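The IFITM and p200 families are groups of interferon-inducible genes, and 9 of their members were described here among 16072 named genes measured in BM Ly6G+ myeloid cells. The members were chosen by symbol and comprised the IFITM genes Ifitm1, Ifitm2, Ifitm3 and Ifitm6 and the p200 genes Ifi203, Ifi204, Ifi205, Aim2 and Mndal. RNA-seq of 3 libraries was analysed, 2 with AAV-Ctrl (the controls, called control 1 and control 2) and 1 with AAV-IL-27 (the IL-27 library). The deposited table has 1 further column named for IL-27, which matches no sample listed for this work and was not used, so every IL-27 value below rests on a single library. All mice were C57BL/6 animals bearing subcutaneous B16.F10 melanoma, injected 1 week before the vector, so the controls carried the tumour too. The IL-27 vector, an adeno-associated virus injected into muscle, carries both subunits of the cytokine (EBI3 and p28) as a single linked chain driven by the CAG promoter, which is active in most cell types. AAV-Ctrl is the empty vector. Cells were collected 3 weeks after the vector, and the study's methods give only a general age range, that of young adults, for all of its mice. The labels count 4 mice but list 3 libraries, and nothing states whether a library came from 1 mouse or from pooled animals.

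IL-27 signals through its receptor chains IL-27RA and gp130 to transcription factors that include STAT3. IFITM proteins are small membrane proteins that hinder the fusion of enveloped viruses with cell and endosome membranes. The p200 proteins carry an HIN domain that binds DNA and mostly a pyrin domain that binds other proteins, and several act as sensors of DNA in the cytosol or nucleus.

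The values are FPKM (sequenced fragments scaled by transcript length and library depth), a scale on which genes of different length can be compared. A log2 difference is the log2(FPKM + 1) value with IL-27 less the control mean on the same scale, which understates the change of low genes. With 1 IL-27 library no test was run and no p-value is given. The yardstick is how far control 2 lay from control 1. This distance had a median size of 0.087 and a 99th percentile of 0.57 over the 9130 genes whose mean FPKM reached 1, called the genes tested. The 99th percentile fell with level, from 0.66 for a mean FPKM from 1 to 5 to 0.53 from 5 to 50 and 0.41 from 50. A single value is thus wide for abundant genes and narrow for low ones. A gene is called higher or lower where the IL-27 value was 1 log2 unit or more away from each control, and a second threshold of 0.5 was also used. Depth was estimated at 18980000, 19340000 and 19120000 fragments for control 1, control 2 and the IL-27 library.

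The labelled cell type was borne out by its markers. Ly6g itself, which encodes the antigen of the label, stood at 712 and 766 FPKM in the controls and 586 with IL-27, and S100a8, a neutrophil calprotectin gene, at 41371, 38113 and 38320. Transcripts of macrophages, erythroid cells, B cells and megakaryocytes were lower in the IL-27 library. Of the marker genes tested, 13 of 16 for macrophages, 12 of 12 for erythroid cells, 5 of 5 for B cells and 3 of 7 for megakaryocytes were past the threshold of 1 in the lower direction, and 0 in the higher. Over all genes tested, 2.32% were past this threshold in the lower direction and 0.307% in the higher. The median log2 difference was -1.70 for macrophage, -2.82 for erythroid, -1.87 for B-cell and -1.19 for megakaryocyte markers. It was -0.04 for 11 early neutrophil genes, 0.00 for 12 late neutrophil genes, 0.12 for 9 monocyte genes, 0.20 for 2 dendritic-cell genes and 0.12 for 2 T- and NK-cell genes. Summed macrophage markers were 1222 and 1225 FPKM in the controls and 498 with IL-27, and summed B-cell markers 31.5, 41.6 and 5.25 FPKM. Summed erythroid markers were the largest of these, at 16264 FPKM in control 1, 10869 in control 2 and 1850 with IL-27, so the controls differed in them too. In bulk RNA, fewer cells of a type and less RNA per cell cannot be told apart.

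In brief, the p200 genes Aim2 and Ifi204 were above each control by more than 0.5 log2 units with IL-27. No IFITM gene was past that threshold in either direction. Mndal and Ifi203, from the same p200 cluster, were lower than both controls but within 0.5 of the nearer one. Of the 9 members, 8 reached a mean FPKM of 1 and were counted. Ifi205, the exception, was below it.

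At the threshold of 1, 0 of 8 members were higher and 0 were lower, against 28 of all 9130 genes higher (0.307%) and 212 lower (2.32%). At the threshold of 0.5, 2 of 8 members were higher, against 143 genes in all (1.57%), and 0 were lower, against 640 (7.01%). By any amount, 2 of 8 were above both controls, where 38.9% of all genes were, and 5 of 8 were below both, where 41.9% of all genes were. The median log2 difference was -0.25 over the 4 IFITM members and 0.14 over the 4 p200 members counted, against -0.01 over all genes tested.

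**Figure D1:**
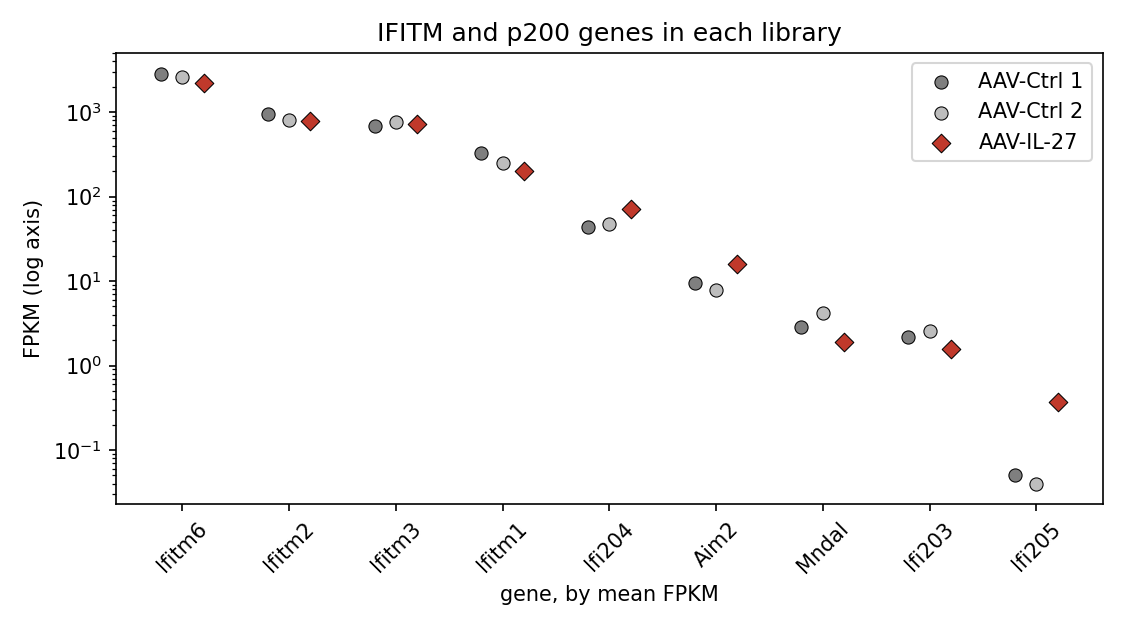
FPKM on a log axis of the 9 members in AAV-Ctrl 1 and AAV-Ctrl 2 (grey circles) and AAV-IL-27 (red diamonds), ordered by mean level. The IFITM genes stand at 200.85 FPKM or more in every library, Ifi204 and Aim2 are higher with IL-27, and Mndal and Ifi203 are lower.

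The IFITM genes were among the most abundant transcripts of these cells. From highest to lowest, the order Ifitm6, Ifitm2, Ifitm3, Ifitm1, Ifi204, Aim2, Mndal, Ifi203 and Ifi205 was the same in all 3 libraries, and of the neighbours in it only Mndal and Ifi203 had overlapping ranges over the libraries. Ifitm6, a family member with high expression in myeloid cells, is on chromosome 7 from 141015699 to 141017924 (minus strand, mm10). It stood at 2873 FPKM in control 1, 2633 in control 2 and 2207 with IL-27, and its mean level was the 19th highest of the genes tested. The IL-27 value was below both controls, with a log2 difference of -0.32 against -0.13 between the controls. Ifitm6 alone took 59.2%, 59.0% and 56.4% of the summed FPKM of the 4 IFITM members in these libraries.

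Ifitm2 (chromosome 7 from 140954837 to 140955987, minus strand), whose protein sits mainly in endosomes and lysosomes, stood at 963 and 817 FPKM in the controls and 778 with IL-27. The log2 difference of -0.19 was smaller than the -0.24 between the controls.

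Ifitm3 (chromosome 7 from 141009586 to 141010770, minus strand) encodes the best-known antiviral member, which restricts influenza virus in late endosomes. It stood at 689 and 757 FPKM in the controls and 728 with IL-27. The latter lay between the controls, at 101% of their mean, so no difference beyond the spread of the controls was seen.

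Ifitm1 (chromosome 7 from 140967221 to 140969825, plus strand) encodes a member found mostly at the cell surface. It stood at 328 and 252 FPKM in the controls and 200.85 with IL-27, a log2 difference of -0.52. This was the lowest of the IFITM values, but the controls differed by -0.38 between them, and the difference from the nearer control was -0.33.

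The sum over the 4 IFITM members was 4656 ± 279 FPKM (SD, n = 2) in the controls and 3914 with IL-27, 84.1% of the control mean. The log2 difference of the sum was -0.31 from control 1 and -0.19 from control 2, against -0.12 between them. The ratio of Ifitm3 to Ifitm1 was 2.10 and 3.00 in the controls and 3.63 with IL-27. Estimated fragments of these genes ran from 2838 to 32334 per library, so counting error was small beside the difference between the controls.

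The remaining IFITM genes of the table were low. Ifitm5, known from bone-forming cells, stood at 1.34 and 1.63 FPKM in the controls and 2.12 with IL-27, which corresponds to an estimated 18, 22 and 28 fragments with overlapping 95% Poisson intervals. Ifitm10 stood at 2.23, 2.49 and 2.48 FPKM, with the IL-27 value between the controls. Ifitm7, on chromosome 16 away from the cluster, was at 0.07 and 0.06 FPKM in the controls and listed at 0 with IL-27, about 1 fragment or none in each library.

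**Figure D2:**
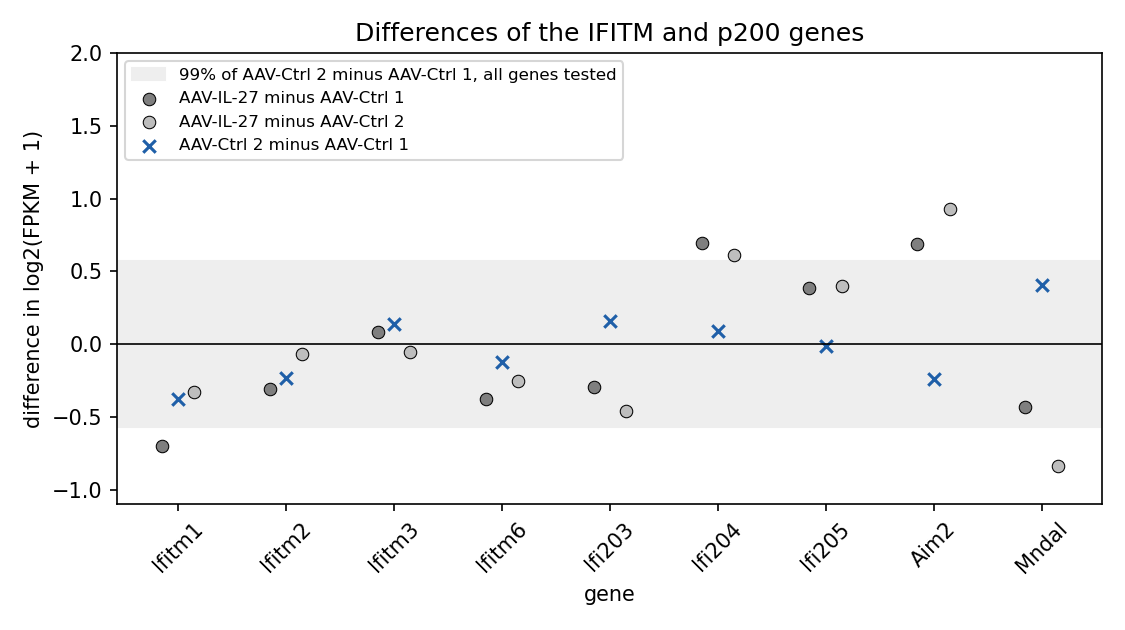
Difference in log2(FPKM + 1) for each member between AAV-IL-27 and AAV-Ctrl 1 (dark circles), AAV-IL-27 and AAV-Ctrl 2 (light circles), and AAV-Ctrl 2 and AAV-Ctrl 1 (blue crosses). The shaded band spans the 99th percentile (0.57) of the size of the control difference over all genes tested, and only Ifi204 and Aim2 have both AAV-IL-27 differences outside it.

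The p200 genes lie in a single cluster on chromosome 1, where 11 of them were in the table. Besides the 5 members these were AI607873, Pydc3, Pyhin1, Mnda, Pydc4 and BC094916, which RefSeq now names Ifi207, Ifi208, Ifi209, Ifi211, Ifi213 and Ifi214. Most promoters of this family hold a common motif. The interferon-stimulated response element (ISRE), a motif of many interferon-inducible promoters, has a core of GAAA, any 2 bases and GAAA. On either strand, this core was found within the 250 bases before a RefSeq start site (GRCm38.p6) for 8 of the 10 p200 genes with a promoter entry, against 2.98% of all 32851 promoter entries. Of the IFITM genes, 1 of 7 held it. The gamma-activated site TTCNNNGAA, where N is any base, was found for 0 of 10 p200 and 1 of 7 IFITM genes, against 7.02% of all. A gene was counted if any of its entries held the motif, whereas the shares of all are per entry. Some p200 genes have the same bases around the core, so they are not separate occurrences. Such a match is a description of the letters and shows no binding. A promoter of Ifi204 was not analysed here.

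The windows around the core are shown because the genes that share it differed in direction in the IL-27 library. Each runs 5′ to 3′ on the strand of its gene, with the ISRE core in capitals. Those of Mndal (chr1:173880199-173880238, minus strand), Ifi203 (chr1:173942503-173942542, minus strand) and Ifi205 (chr1:174031865-174031904, minus strand) are followed by those of Pydc3 (chr1:173673592-173673631, plus strand), Mnda (chr1:173913059-173913098, minus strand) and AI607873 (chr1:173741826-173741865, minus strand).
Mndal: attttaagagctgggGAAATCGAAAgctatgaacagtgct
Ifi203: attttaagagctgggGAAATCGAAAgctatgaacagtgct
Ifi205: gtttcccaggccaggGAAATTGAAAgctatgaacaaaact
Pydc3: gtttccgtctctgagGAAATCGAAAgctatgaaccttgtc
Mnda: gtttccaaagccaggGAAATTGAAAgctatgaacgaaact
AI607873: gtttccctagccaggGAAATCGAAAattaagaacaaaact

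The windows of Mndal and Ifi203 are the same over all 40 bases, and in these windows the core starts 36 and 35 bases before the start site. The core was also found for Pydc4 and BC094916, whose windows are not shown. The Pydc4 window has the same bases as that of Pydc3. For comparison, the only IFITM gene with the core was Ifitm2 (chr7:140955983-140956022, minus strand), and Ifitm6 (chr7:141016893-141016917, minus strand) held the gamma-activated site, here in capitals.
Ifitm2: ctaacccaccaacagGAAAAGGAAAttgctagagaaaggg
Ifitm6: accacccatatgaacTTCCTTGAAa

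Aim2, which had the largest difference of the 8 members counted, held neither motif in the 250 bases before its RefSeq start site (chr1:173420354-173420603, plus strand), which are shown for that reason. In GENCODE M21 the gene starts farther upstream, at 173350879, and the bases before that start were not searched.
Aim2: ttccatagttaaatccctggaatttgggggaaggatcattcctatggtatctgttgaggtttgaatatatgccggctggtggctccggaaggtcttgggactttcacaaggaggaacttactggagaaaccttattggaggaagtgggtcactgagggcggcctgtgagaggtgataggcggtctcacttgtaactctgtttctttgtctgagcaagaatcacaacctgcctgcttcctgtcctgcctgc

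Aim2 (Gene number 383619, chromosome 1, 173350879 to 173466040 on the plus strand) encodes the sensor that binds cytosolic double-stranded DNA and assembles an inflammasome. It stood at 9.45 FPKM in control 1, 7.83 in control 2 and 15.8 with IL-27. The IL-27 library was above both controls, at 183% of their mean, and the estimated fragments were 497, 419 and 838. The log2 difference was 0.81, and 0.69 above the higher control, against -0.24 between the controls. Aim2 ranked 66 of 9130 genes by its distance above the higher control. Aim2 shared no run of 100 bases with another p200 transcript of the table.

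Ifi204 (Gene number 15951, chromosome 1, 173747293 to 173766943 on the minus strand) encodes p204, a nuclear and cytosolic DNA sensor of mouse cells. It was the most abundant p200 gene, at 44.0 and 46.8 FPKM in the controls and 71.9 with IL-27. The IL-27 value was above both controls, at 158% of their mean. The log2 difference was 0.65, against 0.09 between the controls, and by the distance above the higher control Ifi204 ranked 92. Ifi204 took 75.2%, 76.3% and 78.5% of the summed FPKM of the 5 p200 members.

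Mndal (Gene number 100040462, chromosome 1, 173849126 to 173942491 on the minus strand) encodes a nuclear p200 protein that slows cell growth. It stood at 2.88 and 4.14 FPKM in the controls and 1.88 with IL-27. The IL-27 value was below both, with a log2 difference of -0.63, but the controls differed by 0.41 and the difference from the nearer control was -0.43. The estimated fragments were 107, 157 and 70, and the 95% Poisson interval with IL-27, 54.6 to 88.4, met that of control 1, 87.7 to 129. Against both controls together, scaled by depth, the ratio of fragments was 0.53 with a 95% interval from 0.40 to 0.69, which covers counting error and not the spread between libraries. By its distance below the lower control Mndal ranked 765. With a pseudocount of 0.1 in place of 1 Mndal was past the threshold of 0.5, with a difference of -0.59 from the nearer control. In a 100-base comparison, 7.63% of its windows also occur in other p200 transcripts of the table, against 16.8% for Ifi204.

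Ifi203 (Gene number 15950, chromosome 1, 173920407 to 173942672 on the minus strand), another nuclear p200 gene, stood at 2.16 and 2.53 FPKM in the controls and 1.57 with IL-27. It was below both controls, with a log2 difference of -0.38 against 0.16 between them. The difference from the nearer control was -0.30. The estimated fragments of Ifi203 were 140, 167 and 102. Its 95% Poisson interval with IL-27, 83.2 to 124, met that of control 1, 118 to 165. The ratio of its fragments to those of both controls was 0.67, with a 95% counting interval from 0.53 to 0.84. The gene models of Mndal and Ifi203 overlap in GENCODE M21, but in RefSeq Mndal ends before Ifi203 begins, and 0% of the 100-base windows of Ifi203 occur in another p200 transcript of the table. These windows count exact matches only. With mismatches, the transcripts of Ifi203 and Mndal align over 683 bases at 94.6% identity, and whether they shared fragments was not tested. Mndal and Ifi203 were lower in the library in which the macrophage and B-cell markers were lower, at 498 and 5.25 summed FPKM with IL-27, and the part of those cells in their values was not tested.

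Ifi205 (Gene number 226695, chromosome 1, 174011998 to 174031810 on the minus strand), known as an interferon-inducible gene of macrophages, was close to the limit of detection. It stood at 0.05 and 0.04 FPKM in the controls and 0.37 with IL-27, an estimated 1, 1 and 11 fragments. The ratio of these fragments, scaled by depth, was 11.0 with a 95% interval from 2.4 to 102, which covers counting error only. On the log2(FPKM + 1) scale the difference was 0.39. Of the 100-base windows of its transcript, 41.5% also occur in other p200 transcripts of the table, mostly in Mnda, so its fragments cannot be assigned with certainty.

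The p200 members differed in direction. The ratio of Aim2 to Mndal was 3.28 and 1.89 in the controls and 8.42 with IL-27, and that of Ifi204 to Ifi203 was 20.4, 18.5 and 45.8. Both ratios were higher with IL-27 than in either control. The sum over the 5 members was 60.0 ± 1.96 FPKM (SD, n = 2) in the controls and 91.5 with IL-27, 153% of the control mean, with Ifi204 as its main part. The log2 difference of the sum was 0.64 from control 1 and 0.57 from control 2, against 0.07 between them.

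The other p200 genes of the cluster, which are not among the members, were mostly higher. Of the 4 whose mean FPKM reached 1, 4 were above both controls, where 38.9% of all genes were, and 1 was past 0.5. That gene was Pydc3, at 1.39 and 1.49 FPKM in the controls and 3.64 with IL-27, a log2 difference of 0.93 against 0.06 between the controls. Mnda stood at 2.21, 3.19 and 4.76 FPKM, with a log2 difference of 0.65 against 0.38 between the controls. With a pseudocount of 0.1 in place of 1, Pydc3 was 1.23 and Mnda 0.56 above the higher control. At that pseudocount Pydc3 was past the threshold of 1 and Mnda past 0.5.

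AI607873 (3.45, 3.94 and 4.94 FPKM) and Pyhin1 (2.15, 3.33 and 3.51 FPKM) were less far from the controls, with log2 differences of 0.34 and 0.29. The controls differed by 0.15 for AI607873 and by 0.46 for Pyhin1, and Pyhin1 was only 0.06 above the higher control. Pydc4 was at 0.12, 0.42 and 0.53 FPKM, and BC094916 at 0.15 and 0.10 FPKM in the controls and listed at 0 with IL-27. Sharing of fragments limits some of these values. Mnda and Ifi204 align over 1363 bases at 96.9% identity, and 56.9% of the 100-base windows of Mnda occur in other p200 transcripts of the table. The sum over all 11 p200 genes was 68.0 and 73.8 FPKM in the controls and 109 with IL-27. Its log2 difference was 0.61 against 0.12 between the controls. A shared fragment moved from 1 of these genes to another changes this sum only through transcript length. Whether shared fragments were dropped, or given to genes outside the 11, is not known.

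**Figure D3:**
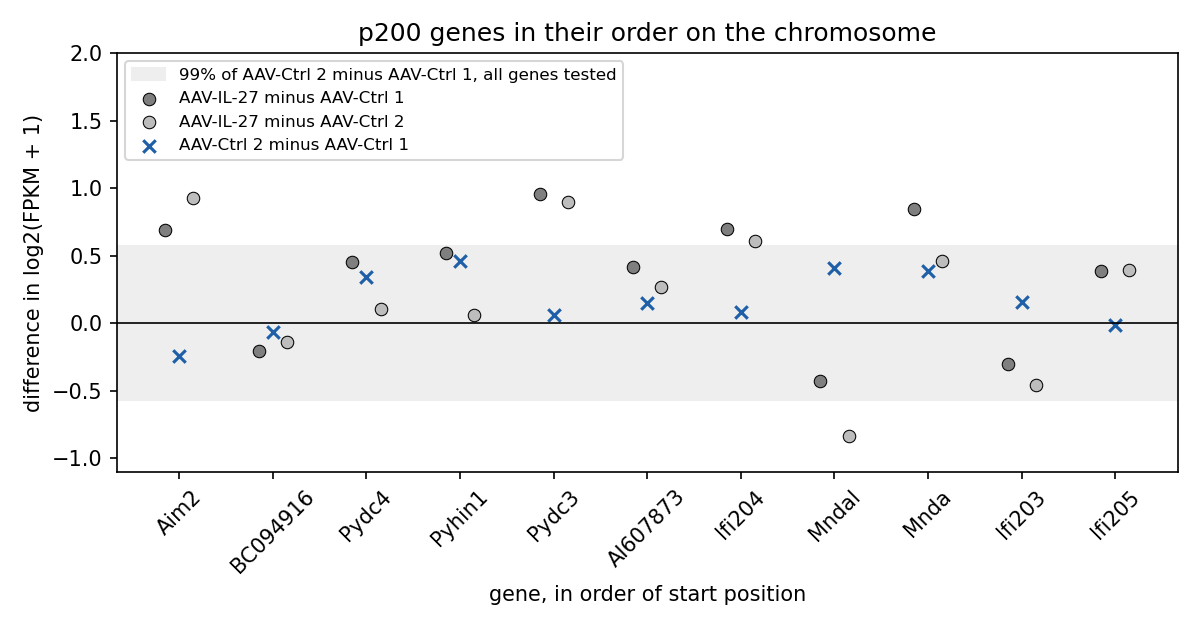
The same differences in log2(FPKM + 1) for the 11 p200 genes in their order along the cluster, with the band of the 99th percentile of control differences (0.57). Aim2, Pydc3 and Ifi204 lie above the band for both controls, while Mndal and Ifi203, close to Mnda and Ifi205 in the cluster, are below 0.

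The 9 inflammasome and pyroptosis genes tested, not all of which work with AIM2, had a median log2 difference of -0.0031, against -0.0054 over all genes tested. Among them 0 were higher by 0.5 and 1 was lower, against 1.57% and 7.01% of all genes. The adaptor gene Pycard stood at 7.95 and 8.56 FPKM in the controls and 8.23 with IL-27, and the protease gene Casp1 at 29.0, 30.1 and 28.8. The inflammasome cytokine gene Il18 was the lower one, at 11.4, 9.02 and 5.24 FPKM, a log2 difference of -0.83. The highest was Ninj1, whose protein ruptures the membrane of dying cells, at 89.2, 97.8 and 133 FPKM, a log2 difference of 0.51.

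For DNA sensing in the cytosol, 2 of 9 genes tested were higher by 0.5 and 0 lower, against 1.57% and 7.01% of all genes. The median was 0.08, and it was 0.17 without control 1 and 0.16 without control 2. The higher ones were Trex1, a DNA-degrading exonuclease gene, at 11.4, 14.1 and 27.2 FPKM and a log2 difference of 1.04, and Zbp1, a sensor of left-handed nucleic acids, at 20.9, 25.8 and 38.5 FPKM and 0.70. The lowest was Ikbke, at 2.91, 4.65 and 3.36 FPKM and -0.11. Tmem173, which encodes STING, stood at 3.98 and 4.33 FPKM in the controls and 6.23 with IL-27, a log2 difference of 0.49. The genes for trafficking, lipid modification and turnover of IFITM proteins had a median of 0.01 over 8 genes, from -0.34 for Zmpste24 to 0.31 for Setd7, and 0 were past 0.5.

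The wider interferon response was set beside the members. Of 25 genes tested from the type I interferon list, 8 were higher by 0.5 and 0 lower, against 1.57% and 7.01% of all genes. Above both controls were 19 of the 25, against 38.9% of all genes, and the list median was 0.39. The median was 0.24 without control 1 and 0.52 without control 2. The highest was Ifit3, an antiviral RNA-binding factor, at 14.4 and 30.02 FPKM in the controls and 59.5 with IL-27, a log2 difference of 1.47. The controls themselves differed by 1.01 for Ifit3 and by a median of 0.32 over the list, with control 2 the higher. The lowest was Trim30a, at -0.29. No IFITM gene and 2 p200 members were past 0.5 in these libraries, and no test of a difference between the families and the type I interferon list was run.

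**Figure D4:**
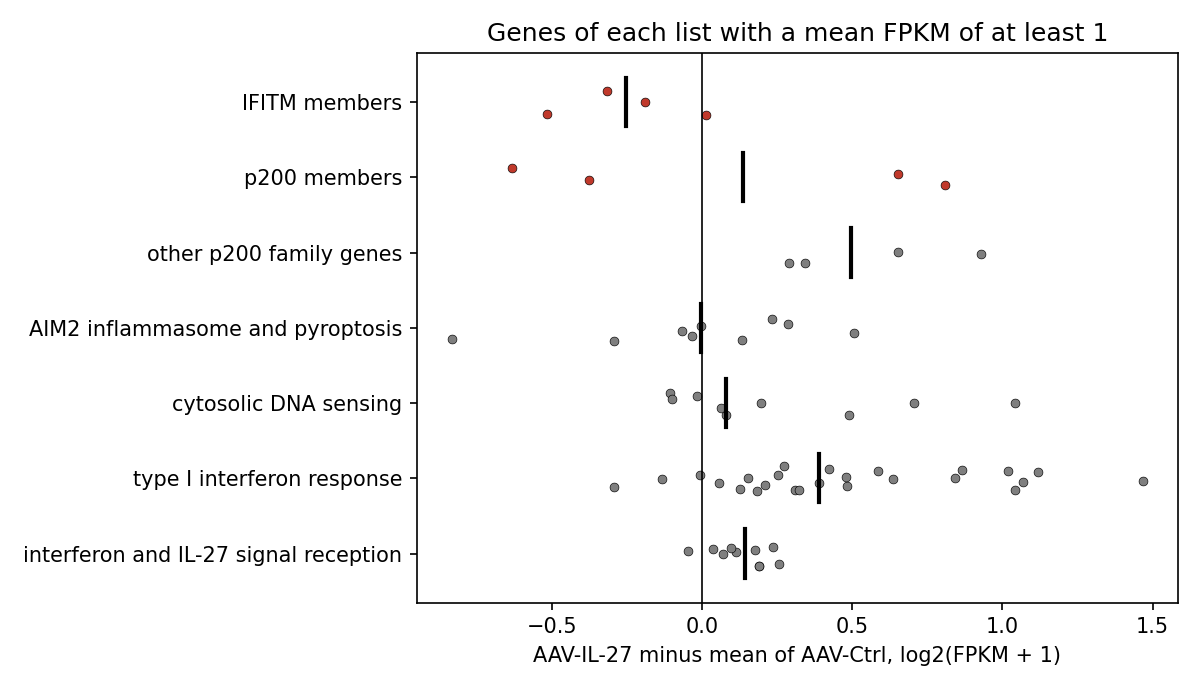
Log2(FPKM + 1) difference of AAV-IL-27 from the control mean for genes whose mean FPKM reached 1 in each list, with the list median as a black bar and the members in red. The IFITM members lie between -0.52 and 0.01, the p200 members are spread from -0.63 to 0.81, and the median of the type I interferon list is 0.39.

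Among genes of signal reception, 0 of 10 were past 0.5 in either direction, with values from -0.05 for Stat3 to 0.26 for Stat2. Il27ra, the IL-27 receptor gene, stood at 0.14, 0.26 and 0.04 FPKM and Il6st, which encodes gp130, at 0.82, 0.80 and 0.43 FPKM, all below the mean FPKM of 1. Of the 7 interferon ligand genes listed, 1 was in the table, Ifng, at 0.05 FPKM in control 1 and listed at 0 in the other libraries.

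By the pair of differences from control 1 and control 2, the genes nearest to Aim2 were Abhd15, 4930562F07Rik, Sstr4, Skint3 and Igf2bp2, at distances from 0.05 to 0.10 log2 units. The likeness rests on 3 libraries. Abhd15, the nearest, stood at 10.9 and 8.95 FPKM in the controls and 17.5 with IL-27.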

How the data were processed

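Poly(A)-selected, strand-marked RNA libraries of BM Ly6G+ cells were sequenced at BGI. The authors deposited FPKM values with 2 decimals per NCBI Gene number, on mm10 per the processing notes. The aligner, the counting tool, its use of strand and the rule for including genes are not given in the sources used here. The table holds no counts. A row without a symbol was dropped, 16035 of 16072 gene numbers matched RefSeq, and 1 column of per-sample values, named for IL-27, matches no listed sample and was not used. The study treats its libraries as biological replicates, but whether a library is 1 mouse or a pool is not stated.

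Differences were taken on the log2(FPKM + 1) scale where the mean FPKM reached 1, with no test. Alternatives were a pseudocount of 0.1, rescaling to equal totals or median ratios, a minimum of 5 or none, a threshold of 0.5 and leaving out either AAV-Ctrl library. Depth was fitted to the steps of low FPKM values over 10934 single-transcript genes, with 70 nt taken off each length. Of 231, 199 and 203 low values, 79.2%, 76.4% and 79.3% lay within 0.2 of a whole fragment. Fragment numbers are therefore estimates, no count test was run, and intervals (exact, 95%) cover counting error only.

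The members, the 20 gene lists and the rules were chosen with earlier results of these data known. The results of 1 of the lists are not reported here. Named were the members, their family genes, the highest and lowest gene of each pathway list and genes past 1, and the 5 genes nearest to the counted member with the largest difference. Zbp1, Pycard, Casp1, Tmem173, Il27ra, Il6st and Ifng were named for their role or as 1 of few genes past 0.5, after their values were seen. Positions come from GENCODE M21 (GRCm38, the assembly of mm10), promoters from RefSeq GRCm38.p6. Transcripts were aligned with BLAST 2.17.0. Calculations used scipy 1.17.1, pandas 2.3.3 and numpy 2.4.6 under Python 3.11.15, and plots matplotlib 3.10.9. The depth fit was tested on simulated data of known depth. The calls at the threshold of 1 were checked on simulated large changes in abundant genes with little noise. That check does not cover calls at 0.5 or in low genes.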

Additional observations from a re-analysis of the deposited data

How the results depend on the processing

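Leaving out either control, rescaling (equal totals or median ratios) or a pseudocount of 0.1 kept the log2 difference of the sums and main members in direction. Over these 5 alternatives the ranges were 0.69 to 0.93 for Aim2, 0.61 to 0.69 for Ifi204, -0.84 to -0.43 for Mndal, -0.70 to -0.33 for Ifitm1, 0.57 to 0.64 for the p200 sum and -0.31 to -0.19 for the IFITM sum. Ifitm3 ranged from -0.05 to 0.08 and had no steady sign. A threshold of 0.5 called 2 members higher, 143 of all genes higher and 640 lower. A pseudocount of 0.1 gave 396 genes lower, -0.55 for Ifi203, 1.70 for Ifi205, and list medians of 0.058 (p200 members), -1.90 (macrophage), -2.87 (B cell) and -1.63 (megakaryocyte). A mean FPKM of at least 5 gave 93 genes lower and medians of 0.73 (p200 members, Ifi204 and Aim2 alone), 0.74 (dendritic cell) and -2.45 (megakaryocyte). Without a minimum the medians were 0.39 (p200 members), 0.052 (other IFITM genes), 0.10 (signal reception) and -0.079 (dendritic cell). Equal totals gave -0.21 (IFITM members), 0.18 (signal reception) and 0.043 (late neutrophil), and shifted the median of all genes by 0.04. Without control 1 and without control 2, genes called higher numbered 40 and 49, and the medians were -0.16 and -0.34 (IFITM members), 0.075 and 0.19 (p200 members), -0.051 and -0.0082 (inflammasome), -0.027 and 0.025 (late neutrophil), 0.076 and 0.34 (monocyte), -1.70 and -1.80 (macrophage), -2.55 and -3.10 (erythroid), 0.24 and 0.52 (type I interferon), 0.17 and 0.16 (DNA sensing), 0.30 and 0.089 (dendritic cell), -0.0011 and 0.23 (T and NK cell), -0.031 and 0.055 (early neutrophil) and 0.022 and -0.010 (IFITM trafficking). The causes were not tested. No paired analysis was possible because AAV-IL-27 has a single library. The single IL-27 library, the few fragments of Ifi205 and sequence shared among p200 transcripts limit what these values can show.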
